A study of Mus musculus with 8 samples.

Results

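The integrin subunits of blood cells are described here in mouse haematopoietic stem and progenitor cells that were transduced with a lentivirus expressing the transcription factor KLF7, a zinc finger protein of the Krüppel-like family, or with a control lentivirus. The 10 genes Itga4, Itga5, Itga6, Itgal, Itgam, Itgax, Itgae, Itgb1, Itgb2 and Itgb7 were taken, out of 19938 genes measured, through the probe set that the platform annotation gives to that gene alone. Each of the 10 had 1 such probe set, so no choice between probe sets was needed. A further 3 probe sets, annotated to Itgam together with Rpl35, were not used. Both groups came from bone marrow of C57Bl/6 mice. Cells positive for the receptor c-Kit were transduced, and 72 hours later the cells that were negative for lineage markers and positive for both c-Kit and Sca-1 were sorted, a gate that holds stem cells and early progenitors. The sorted cells' RNA was amplified and measured on 4 arrays labelled KLF7 and 4 labelled control. The design text gives the aim as a comparison of expression between KLF7-overexpressing and control progenitors. The age of the mice, the promoter of the virus, what the control virus carried and whether arrays came from separate animals or cultures were not stated in the sources used here. P-values therefore reflect the spread among the arrays alone, and this spread may be technical. The number of arrays limits the precision of every value.

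Integrins are receptors made of an α and a β chain, which join before they reach the cell surface, and the β chain's cytoplasmic tail binds the activators talin and kindlin. In bone marrow, β1 pairs with α4 (a receptor for VCAM-1 and fibronectin), α5 (fibronectin) and α6 (laminin), and is known for the lodging and retention of progenitors. The β2 chain is restricted to leukocytes and pairs with αL (LFA-1), αM (Mac-1, CD11b) and αX (CD11c), while β7 pairs with α4 and with αE (CD103), which binds E-cadherin. CD11b is one of the antigens commonly used to gate out mature myeloid cells, and CD11c and CD103 are used as surface markers of dendritic cells. Arrays measure RNA, so the values below say nothing of protein at the surface. In bulk RNA, a larger share of cells of a type and more RNA per cell cannot be told apart.

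Klf7, the transduced gene, lay between 10.19 and 11.43 log2 intensity units on the KLF7 arrays and between 7.98 and 10.28 on the control arrays. The highest control array, control 2, was above the lowest KLF7 array, KLF7 2, and the exact two-sided permutation p was 0.0571, where the smallest possible is 0.0286. Groups are therefore named by their labels. Array medians ran from 46.2 to 54.1 intensity units. The arrays numbered 4 stood apart in both groups: Kit, which encodes c-Kit, was at 7.85 (KLF7 4) and 8.33 (control 4) against 9.57 to 10.52 on the other 6 arrays. The mean of 10 mast cell and basophil markers was 6.50 and 6.16 there against 8.66 to 9.96 on the other 6. Counts that lead the results are given with and without both of these arrays.

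Promoter windows from RefSeq (build GRCm38.p6) matched 6 of the 10 genes: Itga4, Itga5, Itgam, Itgax, Itgb1 and Itgb7. The windows of 4 genes are shown over the 250 bases before the annotated start. Itgb1, Itgb7 and Itgax had higher means on the KLF7 arrays, and Itga4, the α chain that pairs with both β1 and β7, had a difference near 0. The windows of Itgam, which also had a higher mean, and of Itga5 are not shown, and their matches are counted below. Capitals mark the CACCC box, a motif that Krüppel-like factors are known to bind, searched as CACCC and as its reverse complement GGGTG. The windows lie at chr8:128685404-128685653 (Itgb1, plus strand), chr15:102231936-102232185 (Itgb7, minus strand), chr7:128129300-128129549 (Itgax, plus strand) and chr2:79255176-79255425 (Itga4, plus strand).
Itgb1: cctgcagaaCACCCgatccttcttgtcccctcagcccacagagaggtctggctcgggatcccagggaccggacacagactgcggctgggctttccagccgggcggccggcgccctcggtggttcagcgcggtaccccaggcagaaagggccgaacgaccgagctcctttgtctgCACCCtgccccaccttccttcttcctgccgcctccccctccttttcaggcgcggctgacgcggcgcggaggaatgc
Itgb7: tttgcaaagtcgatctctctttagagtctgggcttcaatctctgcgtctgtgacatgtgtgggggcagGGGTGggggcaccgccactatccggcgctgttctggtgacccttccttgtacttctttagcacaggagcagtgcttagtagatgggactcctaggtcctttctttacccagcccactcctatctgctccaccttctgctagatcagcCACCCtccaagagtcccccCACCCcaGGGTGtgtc
Itgax: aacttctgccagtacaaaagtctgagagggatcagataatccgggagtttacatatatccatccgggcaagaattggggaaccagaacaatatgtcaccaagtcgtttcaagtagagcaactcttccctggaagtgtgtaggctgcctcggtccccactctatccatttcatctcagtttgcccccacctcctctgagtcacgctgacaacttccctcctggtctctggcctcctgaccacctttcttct
Itga4: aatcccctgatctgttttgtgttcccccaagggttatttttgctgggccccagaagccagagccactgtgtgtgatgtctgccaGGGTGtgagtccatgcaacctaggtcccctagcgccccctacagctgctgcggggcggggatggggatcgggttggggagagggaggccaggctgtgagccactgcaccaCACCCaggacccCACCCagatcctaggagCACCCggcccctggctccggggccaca

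The CACCC box occurred 2 times in the Itgb1 window, 4 times in Itgb7, 4 times in Itga4, 3 times in Itgam and not in those of Itgax or Itga5. It was present in 52.0% of the 32851 windows of this length in the RefSeq table. The GC box, searched as GGGCGG and CCGCCC, which SP and Krüppel-like factors bind, occurred 2 times in Itga5, once each in Itga4, Itgam and Itgb1, and not in Itgax or Itgb7, against 32.7% of all windows with at least 1. The core of the PU.1 motif, searched as GAGGAA and TTCCTC, occurred 2 times in Itgam and once each in Itga5 and Itgb1, against 23.3% of all windows with at least 1. Matches of different motifs were counted separately and may share bases. A match describes the sequence, and no match says only that these letters are not in this window.

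All 3 β chains had higher means on the KLF7 arrays, as had αM, αX and αE, while α4, α5 and α6 differed by little and αL had a lower mean. Of the 10 genes, 7 had a higher mean, against 50.4% of all genes, and the median difference (KLF7 minus control) was 0.58 log2 units against 0.0019 over all genes. In limma with Benjamini-Hochberg adjustment over all genes, 0 of the 10 genes and 0 of 19938 genes (0%) had an adjusted p under 0.05. At an unadjusted p under 0.05, 6 of the 10 were higher, against a background of 4.65% of all genes, and 0 of the 10 were lower, against 3.56%. The integrins were chosen with earlier results of these data known, so the comparison with all genes is descriptive. The KLF7 and control arrays did not overlap for 2 of the 10, both higher, against 2.83% of all genes higher and 2.38% lower without overlap. Without both arrays numbered 4, 7 of the 10 had a higher mean, against 51.9% of all genes, 5 were higher at an unadjusted p under 0.05, against 5.17%, and the median was 0.61. The groups then did not overlap for 5 of them, on 3 arrays each. These were Itgb1, Itgax, Itgb7 and Itgae with higher values, against 8.05% of all genes, and Itgal with lower ones, against 7.11%. In an exact two-sided permutation test of each gene, whose smallest possible p is 0.0286, 2 of the 10 were higher at an unadjusted p under 0.05: Itgb1 and Itgax, at 0.0286. Itgb2 and Itgb7 were at 0.0571 and Itgam and Itgae at 0.0857 in the exact permutation test. With so few splits that test could hardly pass an adjustment over all genes, and no adjusted count is drawn from it.

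**Figure D1:**
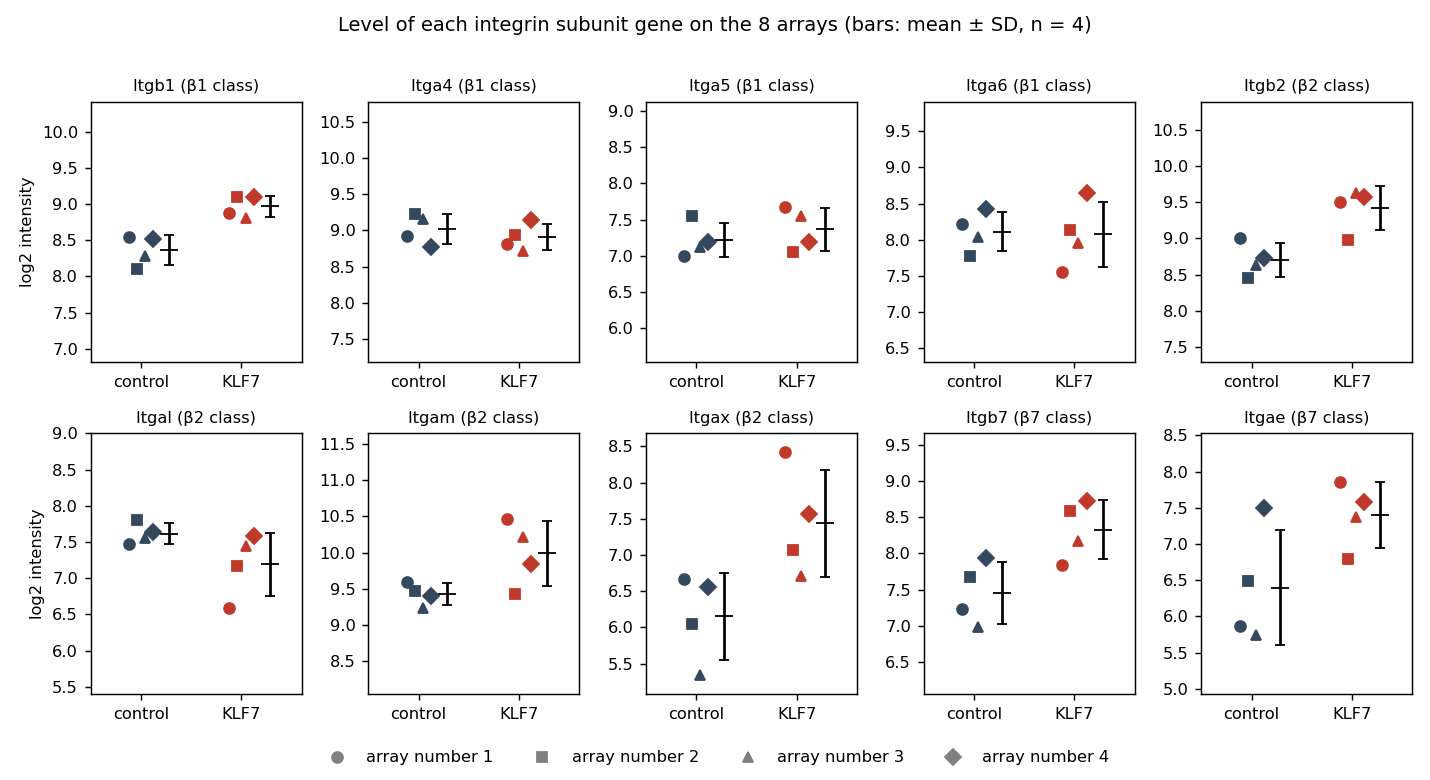
Log2 intensity of the 10 integrin subunit genes on each of the 8 arrays, control (dark) and KLF7 (red), with marker shape for the array number and bars for mean ± SD (n = 4); every panel spans the same number of log2 units. The 4 KLF7 arrays lie above all 4 control arrays for Itgb1 and Itgax, and Itgal is the panel with the lowest KLF7 mean relative to control.

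In the β1 class, 2 of the 4 genes had a higher mean, Itgb1 and Itga5, and the interval of Itgb1 alone lay above 0. Itgb1, which encodes the β1 chain shared by all these receptors, was at 8.87, 9.09, 8.81 and 9.10 on KLF7 arrays 1 to 4 and at 8.54, 8.11, 8.28 and 8.51 on control arrays 1 to 4. The groups did not overlap, and no array stood apart within its group. The means were 8.97 ± 0.15 and 8.36 ± 0.21 (SD, n = 4 each). The difference was 0.60 (SE 0.18, 1.52-fold), with an unadjusted p of 0.00633 and an adjusted p of 0.387 in limma. Without both arrays numbered 2 it was 0.48, with an unadjusted limma p of 0.0617.

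The 3 α chains that pair with β1 all had intervals that include 0. Itga4, the α chain of the VCAM-1 receptor, was at 8.82, 8.94, 8.72 and 9.14 on the KLF7 arrays and at 8.93, 9.22, 9.16 and 8.77 on the control arrays. The groups overlapped, with control 2 the highest and KLF7 3 the lowest of the 8. The difference was -0.12, with a 95% interval from -0.52 to 0.29.

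Itga5, the α chain of the fibronectin receptor, ranged from 7.06 to 7.68 on the KLF7 arrays and from 6.997 to 7.55 on the control arrays, and differed by 0.16 (95% interval -0.28 to 0.59). The KLF7 arrays 1 and 3 were the highest of the 8, and control 2 was close to them. It was 0.05 without KLF7 1 and 0.37 without both arrays numbered 2. Itga6, a laminin receptor chain carried by stem cells, ranged from 7.56 to 8.65 on the KLF7 arrays and from 7.78 to 8.42 on the control arrays. The arrays numbered 4 were the highest of each group, and the difference of -0.04 (95% interval -0.58 to 0.51) became 0.13 without KLF7 1. The interval of Itgb1 ran from 0.21 to 1.00 and overlapped those of all 3 α chains, and the difference between Itgb1 and its α chains was not tested.

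The leukocyte class held both directions. Itgb2, the common β2 chain, was at 9.50, 8.98, 9.63 and 9.58 on KLF7 arrays 1 to 4 and at 9.01, 8.45, 8.63 and 8.73 on control arrays 1 to 4. KLF7 2 was the lowest of its group and control 1 the highest of its own, and that was the only pair of arrays that overlapped. The means were 9.42 ± 0.30 and 8.71 ± 0.23 (SD, n = 4 each). The difference was 0.71 (SE 0.21, 1.64-fold; unadjusted p 0.00592, adjusted p 0.382, limma).

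Itgax, which encodes CD11c, had the largest difference of the 10 on all 8 arrays, though not without KLF7 1, where it was 0.96 and that of Itgb7 1.03. Its level was at 8.42, 7.07, 6.71 and 7.57 on the KLF7 arrays and at 6.67, 6.04, 5.35 and 6.56 on the control arrays. The groups did not overlap, although the lowest KLF7 array, KLF7 3, was only just above the highest control array, control 1, and arrays numbered 3 were the lowest in both groups. The difference was 1.29 (SE 0.38, 2.44-fold; unadjusted p 0.00678, adjusted p 0.392, limma).

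Itgam, which encodes the CD11b chain of Mac-1, was at 10.46, 9.43, 10.21 and 9.85 on the KLF7 arrays and at 9.59, 9.47, 9.23 and 9.41 on the control arrays. KLF7 2 lay among the controls and the other KLF7 arrays lay above them all. The difference was 0.56 (SE 0.23, 1.48-fold, unadjusted p 0.0356, adjusted p 0.558, limma). The unadjusted limma p was above 0.05 in 9 of 20 alternative fits, which reuse the same arrays.

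Itgal, the α chain of LFA-1, ran the other way from its β partner. It was at 6.59, 7.16, 7.44 and 7.58 on the KLF7 arrays and at 7.47, 7.81, 7.55 and 7.64 on the control arrays. No KLF7 array was above the highest control, but KLF7 4 lay within the control range. The difference was -0.42 (SE 0.22; unadjusted p 0.0847, adjusted p 0.688, limma). It was -0.22 without KLF7 1, the lowest array, and -0.55 without KLF7 4.

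Both chains of the β7 class had higher means on the KLF7 arrays. Itgb7 was at 7.84, 8.59, 8.17 and 8.73 on KLF7 arrays 1 to 4 and at 7.23, 7.68, 6.99 and 7.94 on control arrays 1 to 4. Control 4 lay above KLF7 1, and the groups overlapped at that pair alone. The difference was 0.87 (SE 0.27, 1.83-fold; unadjusted p 0.00777, adjusted p 0.402, limma). The arrays numbered 4, where the mast cell and basophil markers were lowest, were the highest of each group for Itgb7, and the difference was 0.90 without them.

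Itgae, which encodes CD103, was at 7.86, 6.80, 7.37 and 7.58 on the KLF7 arrays and at 5.87, 6.49, 5.74 and 7.49 on the control arrays. Control 4 lay above KLF7 2 and KLF7 3, and the other controls lay below every KLF7 array. The means were 7.40 ± 0.45 and 6.40 ± 0.80 (SD, n = 4 each). The difference was 1.00 (SE 0.37, 2.00-fold; unadjusted p 0.0212, adjusted p 0.489, limma). It was 1.37 without control 4, and without both arrays numbered 4 it was 1.31 and the groups no longer overlapped.

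**Figure D2:**
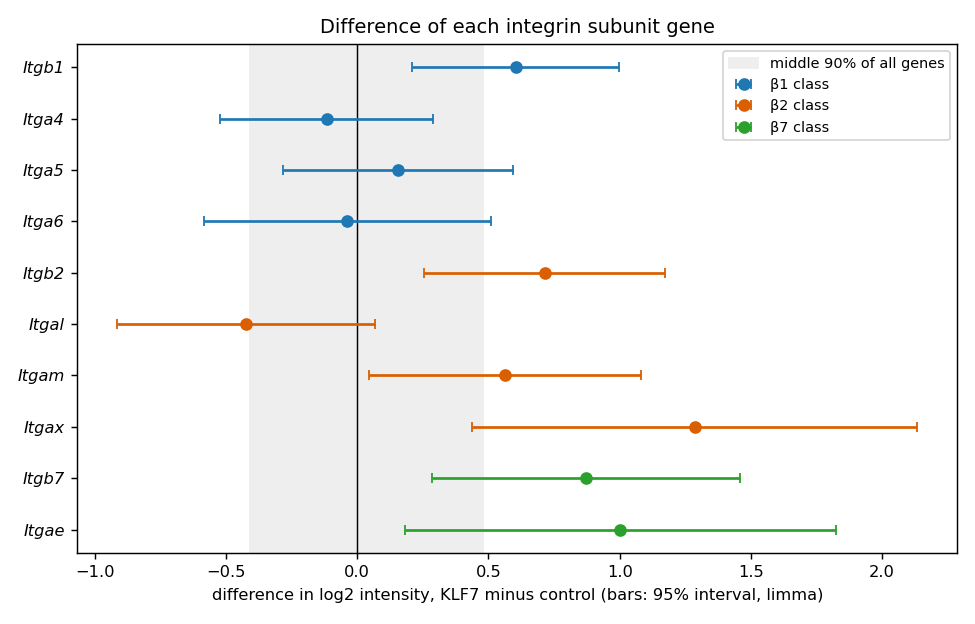
Difference in log2 intensity (KLF7 minus control) of each integrin subunit gene with its 95% interval from limma, coloured by class; the grey band holds the middle 90% of all genes, from -0.41 to 0.48. The intervals of Itgb1, Itgb2, Itgam, Itgax, Itgb7 and Itgae lie above 0, those of Itga4, Itga5, Itga6 and Itgal include it.

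Whether subunits differed unequally was tested within arrays for 6 pairs, with an exact two-sided permutation test over the 8 arrays, whose smallest possible p is 0.0286, and adjustment over the 6 pairs. The 3 β chains could not be told apart in their differences. Itgb2 differed by 0.11 more than Itgb1 (95% interval -0.40 to 0.62, exact p = 0.629, adjusted 0.657), Itgb7 by 0.27 more than Itgb1 (-0.40 to 0.94, exact p = 0.314, adjusted 0.471) and Itgb7 by 0.16 more than Itgb2 (-0.81 to 1.13, exact p = 0.657, adjusted 0.657). These intervals do not show that the β chains differed alike.

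Among the α chains of β2, αL had the lower mean and αM and αX the higher ones. Itgax differed by 1.71 more than Itgal (95% interval 0.15 to 3.26) and Itgam by 0.99 more than Itgal (0.03 to 1.95), and for both pairs the KLF7 arrays did not overlap the control arrays. Each had the smallest possible exact permutation p, 0.0286, and an adjusted p of 0.0857, so neither passed over the 6 pairs. With only these pairs at the smallest possible p, the adjusted p could be no lower, so the adjustment could not decide. Without KLF7 1, the array with the lowest Itgal and the highest Itgax and Itgam, the values were 1.18 and 0.63. Itgax differed by 0.72 more than Itgam (-0.27 to 1.71, exact p = 0.171, adjusted 0.343).

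Genes that act with the integrins were then counted from lists of other subunits, activators, kinases and ligands. No gene of these lists had an adjusted p under 0.05. Over all genes, 50.4% had a higher mean, and 4.65% were higher and 3.56% lower at an unadjusted p under 0.05. Of 16 other integrin subunits, 11 had a higher mean, with a median difference of 0.07, and 0 had an unadjusted p under 0.05. They ran from -0.20 to 0.50, and the smallest p belonged to Itgav, the αV chain (0.27, SE 0.18), Itga11 (0.22, SE 0.16), Itga7 (0.19, SE 0.13) and Itga3 (0.25, SE 0.19).

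Of 27 integrin activators and adaptors, 19 had a higher mean (median difference 0.25), and 5 were higher and 0 lower at an unadjusted p under 0.05. Fermt2, a kindlin, was at 0.39 (SE 0.13), Flna, an actin crosslinker that binds β tails, at 0.47 (SE 0.18), Ilk, the pseudokinase that links β tails to actin through parvin, at 0.64 (SE 0.26), and Cyth1, cytohesin-1, which binds the β2 tail, at 0.53 (SE 0.22). The fifth, named after its values were seen, was Cytip, an inhibitory partner of cytohesin-1, at 0.81 (SE 0.34). Cytip was at 10.71 on KLF7 1 against 9.02 to 9.66 on the other KLF7 arrays and 8.52 to 9.09 on the control arrays. Fermt2 was dim, with means of 4.72 (KLF7) and 4.34 (control), at percentile 23.6 of all genes by mean level. The other kindlins, named after their values were seen, differed by little. Fermt3, at percentile 93.9, was at -0.12 (SE 0.19), and Fermt1, at percentile 7.55, was at -0.02 (SE 0.15).

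Of 18 measured signalling kinases and substrates, 15 had a higher mean (median difference 0.19), and 4 were higher and 0 lower at an unadjusted p under 0.05. Fgr, a Src family kinase that acts downstream of β2 integrins in myeloid cells, was at 7.67, 6.95, 7.13 and 7.70 on the KLF7 arrays and at 6.28, 6.69, 6.34 and 6.65 on the control arrays. These groups did not overlap, and the difference was 0.87 (SE 0.21, 1.83-fold; unadjusted p 0.00182, adjusted p 0.323, limma). Cdc42, a small GTPase that controls actin, differed by 0.50 (SE 0.16), Zyx, the focal adhesion protein zyxin, by 0.51 (SE 0.19), and Ptk2b, the focal adhesion kinase relative PYK2, by 0.44 (SE 0.18). Arrays did not overlap for Cdc42 or Zyx and overlapped for Ptk2b.

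The ligands gave different counts by class. Of 12 measured β1 ligands, 8 had a higher mean (median difference 0.04), and 0 had an unadjusted p under 0.05. Vcam1, the ligand of α4β1, was at -0.75 (SE 0.45) and Fn1, fibronectin, at -0.99 (SE 0.78), Lamb2, a laminin chain, at 0.33 (SE 0.16) and Tnc, tenascin C, at -0.20 (SE 0.14). Of 11 measured β2 ligands, 7 had a higher mean (median difference 0.06), and 2 were higher and 0 lower at an unadjusted p under 0.05.

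Those 2 were Thy1, a surface glycoprotein that binds αMβ2, and F11r, the junction molecule JAM-A, which binds LFA-1. Thy1 was at 9.39, 10.21, 10.41 and 11.48 on the KLF7 arrays and at 8.70, 7.53, 8.67 and 9.29 on the control arrays, a difference of 1.83 (SE 0.45, 3.55-fold; unadjusted p 0.00218, adjusted p 0.327, limma) with no overlap. F11r differed by 1.20 (SE 0.44), with control 4 above 2 of the KLF7 arrays. Icam2, another LFA-1 ligand, was at -0.34 (SE 0.17), and Fgb, a fibrinogen chain, at -0.21 (SE 0.12).

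Of the 2 β7 ligands, Cdh1, which encodes E-cadherin, the ligand of αEβ7, was at 9.10, 8.13, 7.94 and 8.32 on the KLF7 arrays and at 7.72, 7.34, 6.65 and 7.56 on the control arrays. Every KLF7 array was above every control array, and the difference was 1.05 (SE 0.30, 2.07-fold; unadjusted p 0.00510, adjusted p 0.373, limma). Madcam1, the ligand of α4β7, differed by 0.18 (SE 0.16).

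**Figure D3:**
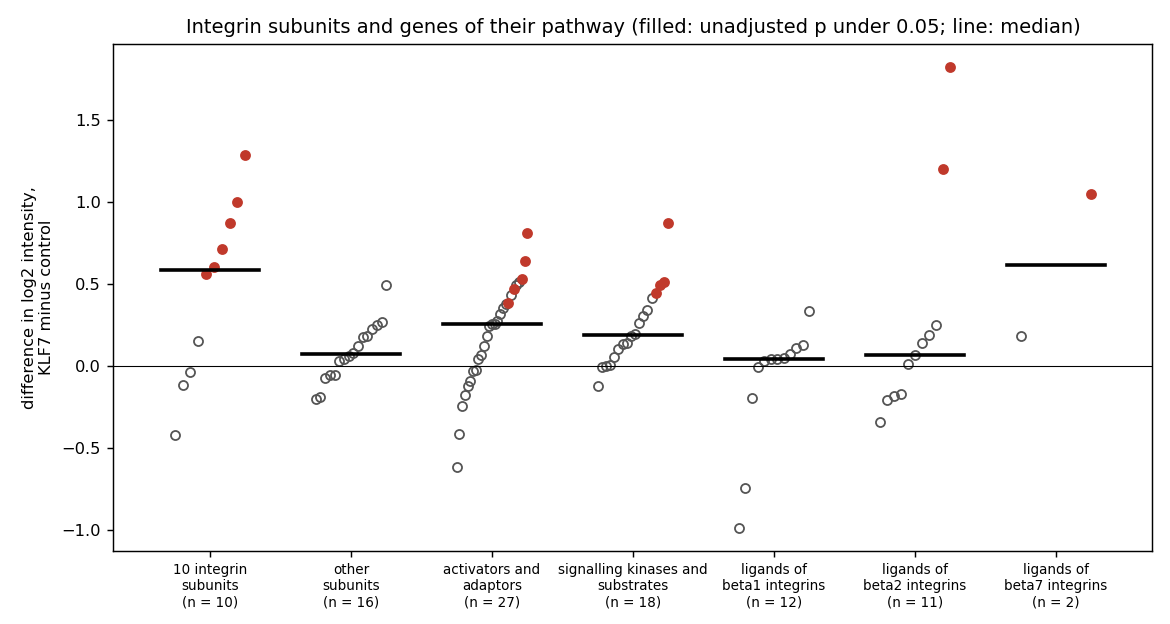
Difference in log2 intensity (KLF7 minus control) of each measured gene for the 10 integrin subunits and 6 lists of genes that act with them; filled points have an unadjusted p under 0.05 in limma, and the line is the list's median. Filled points lie above 0 in each list that has any, with 5 among activators, 4 among kinases and substrates, 2 among β2 ligands and 1 among β7 ligands.

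Markers of other cell types were set beside the integrins, because αM, αX and αE are also used to mark mature cells. Of 14 dendritic cell markers, 11 had a higher mean (median difference 1.03), against 50.4% of all genes. At an unadjusted p under 0.05, 8 were higher, against 4.65% of all genes, and 0 were lower, against 3.56%. The list's mean level was 7.39 to 8.34 on the KLF7 arrays and 6.39 to 7.48 on the control arrays. Ccr7, a chemokine receptor of migrating dendritic cells, was at 1.28 (SE 0.30), Ciita, the activator of MHC class II genes, at 1.26 (SE 0.32), and Cd83, a maturation marker, at 1.22 (SE 0.31). H2-Aa, H2-Eb1, H2-Ab1 and Cd74, named after their values were seen, were also among the 8. They serve MHC class II presentation, which Ciita activates, so the 8 should not be read as separate markers. The defining genes Zbtb46 (0.12, SE 0.15), Xcr1 (0.25, SE 0.15), Clec9a (-0.19, SE 0.23) and Siglech (-0.12, SE 0.18), named after their values were seen, had intervals that include 0. Their mean levels lay between percentiles 24.8 (Xcr1) and 42.4 (Zbtb46) of all genes.

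The list's highest array was KLF7 1, at 8.34, and its lowest control 3, at 6.39, which are also the highest and lowest arrays for Itgax and for Itgae. Control 4, the control highest for Itgae, was the control highest for this list, at 7.48. Other arrays did not match. The highest control for Itgax was control 1, at 6.67. The lowest KLF7 array was KLF7 2 for Itgae, at 6.80, and KLF7 3 for the list, at 7.39. The part of dendritic cells in the differences of Itgax and Itgae was not tested. Of 12 measured monocyte and macrophage markers, 7 had a higher mean (median difference 0.25), against 50.4% of all genes. At an unadjusted limma p under 0.05, 2 were higher, against 4.65% of all genes, and 0 were lower, against 3.56%. The 2 were Ccr2 (0.62, SE 0.18) and Adgre1 (0.86, SE 0.27), followed by Cx3cr1 (0.32, SE 0.16). The mean level of the monocyte and macrophage list was 7.05 to 7.99 on the KLF7 arrays and 6.76 to 7.94 on the control arrays. The part of monocytes and macrophages in the differences of Itgam and Itgb2 was not tested.

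**Figure D4:**
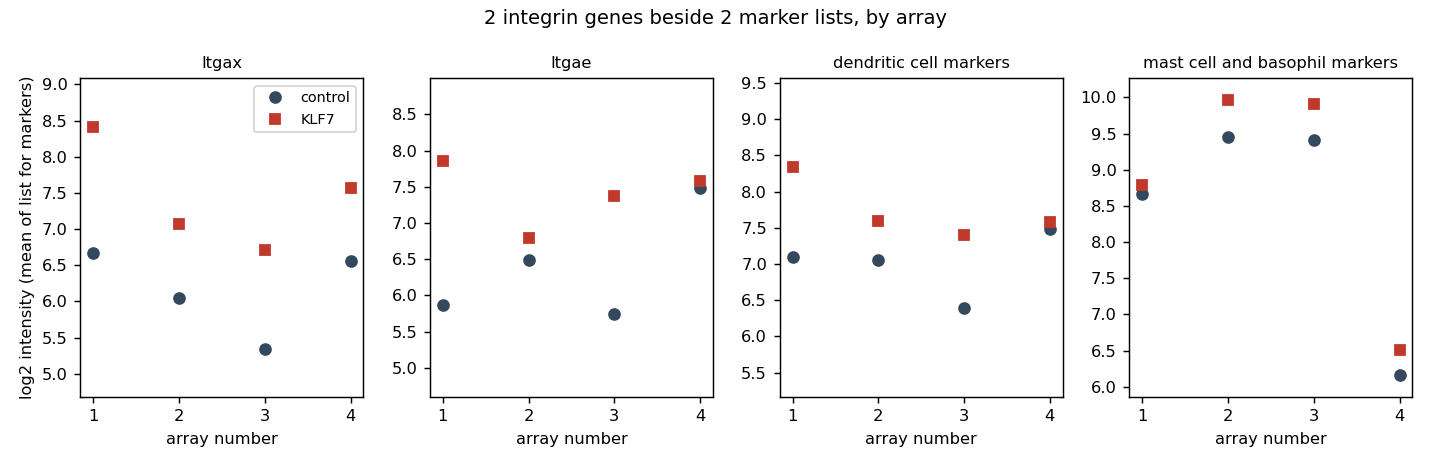
Log2 intensity of Itgax and Itgae and the mean log2 intensity of the dendritic cell and the mast cell and basophil marker lists, by array number, for control (circles) and KLF7 (squares) arrays; every panel spans the same number of log2 units. KLF7 1 is the highest and control 3 the lowest array for Itgax, Itgae and the dendritic cell markers, and the mast cell and basophil markers are low on both arrays numbered 4.

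Of 12 measured markers of the sorted fraction, 9 had a higher mean (median difference 0.13), against 50.4% of all genes. At an unadjusted limma p under 0.05, 2 were lower, against 3.56% of all genes, and 0 were higher, against 4.65%. The 2 were the transcription factor genes Hlf (-0.90, SE 0.23) and Myb (-0.91, SE 0.24). Procr, the protein C receptor gene, followed at 0.49 (SE 0.23). Kit and Cd34, a progenitor surface marker, both named after their values were seen, differed by 0.31 (SE 0.56) and 0.03 (SE 0.36). The mean of 10 mast cell and basophil markers, 7 of which had a higher mean, was 6.50 to 9.96 on the KLF7 arrays and 6.16 to 9.46 on the control arrays, and 0 had an unadjusted p under 0.05. The smallest p belonged to Mcpt4 (0.54, SE 0.44), Gzmb (0.77, SE 0.89) and Ms4a2 (0.74, SE 0.90).

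The genes whose pattern over the 8 arrays lay closest to each β chain were then found by the root mean square distance between log2 levels, each centred on its own mean. Closest to Itgb1 were Efhd2, a calcium-binding protein gene (0.093), Ap2b1, an adaptor of clathrin-mediated endocytosis (0.11), and Mvp, the major vault protein gene (0.11), against a median of 0.42 over 19937 genes. Closest to Itgb2 were Cish, a feedback inhibitor of cytokine receptors (0.13), B430306N03Rik (0.14) and Elmo2, an engulfment and motility adaptor (0.15), against a median of 0.48. Closest to Itgb7 were Milr1, an inhibitory receptor gene of mast cells (0.20), Capn2, a calpain that cleaves talin (0.21), and Rhof, a small GTPase gene (0.21), against a median of 0.62.

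Among the integrins themselves, the β chains lay at unequal distances from one another. Itgb1 and Itgb2 were 0.26 apart, which placed Itgb2 at rank 667 for Itgb1 and Itgb1 at rank 133 for Itgb2. Itgam was the member closest to Itgb2 (0.23, rank 56), while Itgax lay at 0.62 and Itgal at 0.68, both beyond the median gene. The levels were not scaled, so a gene with a wider range can lie far even where its direction is shared. Itgax ranged over 3.07 log2 units on the 8 arrays, Itgal over 1.21 and Itgb2 over 1.17. Itgax and Itgb2 both had higher means on the KLF7 arrays, and Itgal a lower one. Itga4, Itga5 and Itga6 lay at 0.44, 0.44 and 0.39 from Itgb1, near the median gene. From Itgb7, Itgb1 was 0.36, Itgb2 0.49, Itgae 0.53 and Itga4 0.62. For Itgb2, Itgb7 thus lay just beyond the median gene.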

How the data were processed

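Single-colour arrays with a biotin label measured amplified RNA of 8 sorted samples, 4 labelled KLF7 and 4 control. The authors deposited probe set intensities, for which the submitters' processing notes name RMA and Affymetrix Expression Console; their versions and a genome build were not stated in the sources used here. RMA corrects background and normalises between arrays, which can compress dim differences. The deposited intensities, 2.20 to 15393, were linear and were taken to log2. Of 35554 probe sets, 21789 carried 1 gene symbol, and 21698 of these matched the RefSeq table (GRCm38.p6) by Entrez number. The probe set with the highest mean was kept per gene (999 genes had several), with no filter, giving 19938 genes.

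Genes were fitted in limma 3.58.1 (R 4.3.3; lmFit, eBayes with intensity trend, group only), two-sided, with Benjamini-Hochberg adjustment over all genes and a threshold of 0.05. On data simulated from the 19938 genes for this comparison, 71% of 100 genes changed 2-fold and 96% of 100 changed 4-fold were recovered. In the same simulation, 7 unchanged genes were called. Its noise was independent between arrays and lacked the likeness of same-numbered arrays, so these shares need not hold for the measured data. The integrins and lists were chosen with earlier results of these data known. All 10 integrins were named, and, by smallest p, up to 4 genes per pathway list, 3 per marker list and 3 closest genes per β chain; other genes are marked as named after their values were seen. Same-numbered arrays' deviations from group means correlated at 0.35, -0.13, 0.36 and 0.70 for numbers 1 to 4, so the numbers were not taken as pairs. Alternatives left out arrays, added a block, batch or weights, and changed the normalization, prior, filter, probe set rule and test. Figures used matplotlib 3.10.9.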

Additional observations from a re-analysis of the deposited data

How the results depend on the processing

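The depositors' normalization and 4 arrays per group limit these values, and no dim-probe detection call was used here. Over 20 alternatives fitted in limma, 4 to 6 integrins were higher at an unadjusted p under 0.05 and 7 or 8 had a higher mean. In the alternatives that left out arrays, 3.46% to 5.17% of all genes were higher at that p, and 48.5% to 52.7% had a higher mean. Itgax, Itgb2 and Itgb7 had an unadjusted limma p under 0.05 in all 20, Itgb1 in 19, Itgae in 17 and Itgam in 11. These alternatives reuse the same 8 arrays, so they are not separate checks. The mean over probe sets could not change an integrin's difference, since each had 1 probe set. In the exact permutation test, a further alternative, 2 integrins were under 0.05 (Itgax and Itgb1) and Itgb2, Itgb7, Itgae and Itgam were not. Those 2 are the integrins whose groups did not overlap in the main fit, so this repeats that count. The replicate number as a block called 90 genes in limma with Benjamini-Hochberg adjustment, among them 1 integrin, Itgax (1.29, adjusted p 0.0291), with 2691 genes at an unadjusted p under 0.05, 1510 of them higher, and 1 integrin lower at that p (Itgal). Deviations of the arrays numbered 2 did not correlate, so this block may not reflect pairing, and arrays with numbers 1, 3 and 4 correlated best with their own number. The arrays numbered 4 as a batch term called 26 genes, no integrin, with 2459 at an unadjusted p under 0.05. Array weights gave Itga6 a difference of 0.0054, the reverse sign. They also gave 1 integrin lower at an unadjusted limma p under 0.05. The main fit had 3.56% of all genes lower, but it was unweighted, so that share need not hold for the weighted fit. The number of integrins whose groups did not overlap was 5 without both arrays numbered 4 (15.2% of all genes) and 4 without both arrays numbered 2 (11.3% of all genes). Array medians left the Klf7 difference at 1.77 with an exact permutation p of 0.0286. The causes were not tested.

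With 1 array left out at a time, the calls over all genes were 0 or 1. The integrins lower at an unadjusted p under 0.05 were 0 or 1 (1 without KLF7 4). Without KLF7 4, 1969 of 19938 genes had an unadjusted limma p under 0.05, 1016 of them higher. Integrins without overlap numbered 2 to 4 (4 without KLF7 2 or control 4, against 7.91% and 9.83% of all genes). Itga6 ran from -0.23 to 0.13, the difference of Itgb2 minus that of Itgb1 from -0.012 to 0.30, that of Itgb7 minus that of Itgb2 from -0.077 to 0.35, and Klf7 from 1.41 to 2.18, with an exact permutation p of 0.0286 without control 2.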

Other observations

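Among markers of further lineages, those of neutrophils and of megakaryocytes and platelets varied more between array numbers than between groups. The mean of 14 neutrophil markers, 10 of which had a higher KLF7 mean, was highest on both arrays numbered 3, at 9.18 (KLF7) and 8.89 (control), against 7.05 to 8.03 on the other 6. Its smallest p belonged to Cxcr2 (0.53, SE 0.35), Mpo (-1.11, SE 0.75) and Retnlg (0.26, SE 0.21). The mean of 6 measured megakaryocyte and platelet markers was highest on both arrays numbered 4, at 9.13 and 9.59, against 7.41 to 8.51, and 0 of the 6 had a higher KLF7 mean (Gp9 -0.44, SE 0.52; Treml1 -0.30, SE 0.45; Ppbp -0.30, SE 0.66).

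Of 12 T and natural killer cell markers, 5 had a higher mean and the median was -0.04, with Klrb1c at -0.30 (SE 0.15), Cd3g at 0.21 (SE 0.11) and Nkg7 at -0.67 (SE 0.44). Of 8 measured B cell markers, 3 had a higher mean, with Blnk at 0.70 (SE 0.28, unadjusted limma p 0.0317), Cd79a at -0.28 (SE 0.15) and Ms4a1 at 0.20 (SE 0.12). Of 5 measured erythroid markers 0 had a higher mean, with Epor at -0.26 (SE 0.14), Klf1 at -0.41 (SE 0.25) and Tfrc at -0.13 (SE 0.24). Among these 5 lists, Blnk was the 1 gene with an unadjusted limma p under 0.05. Over all genes, 50.4% had a higher mean, and 4.65% were higher and 3.56% lower at that p.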
